A study of Homo sapiens with 9 samples.

Results

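TNFSF9 and CD70 are genes of the tumour necrosis factor (TNF) ligand superfamily that lie near each other on the short arm of human chromosome 19. Both were chosen on their counts in these same 9 libraries of U-87 cells, so their levels and fold changes are given as a description and without a test. They are 2 of 80013 genes or unnamed transcripts listed in the count table, of which 5564 had at least 1 count and 609 had a mean of at least 10 counts per library. U-87 is a human glioblastoma cell line, described by the study as resistant to temozolomide (TMZ), a DNA-alkylating drug used against glioblastoma. The cells were left untreated (control, 3 libraries) or treated for 24 h with TMZ, with evernic acid (EA), a lichen metabolite, or with both. The treatments were 30 µM EA (EA30), 45 µM EA (EA45), 35 µM EA with 320 µM TMZ (EA35TMZ320), 20 µM EA with 380 µM TMZ (EA20TMZ380), 20 µM EA with 580 µM TMZ (EA20TMZ580) and 600 µM TMZ (TMZ600), with 1 library each. The labels do not say whether the control libraries came from separate cultures, so the spread between them may be technical and the p-values below measure only the spread between these samples.

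TNFSF9 encodes 4-1BB ligand, a membrane protein that binds the receptor TNFRSF9 (4-1BB, CD137) on activated T cells and NK cells. CD70 is the membrane ligand of CD27, a receptor carried by T cells and by some B cells. Both ligands give co-stimulatory signals, which add to the signal from the antigen receptor, and both receptors pass these on through TRAF adaptor proteins to NF-κB. TNFSF9 and CD70 are normally found on activated antigen-presenting cells and lymphocytes, and CD70 is also carried by many glioblastomas and other tumours.

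In the RefSeq annotation of GRCh38, TNFSF9 occupies chr19:6531026-6535924 on the plus strand and CD70 occupies chr19:6581648-6591150 on the minus strand. Their 3′ ends therefore face each other, with 45723 bases and 2 annotated pseudogenes (TGFBR1P1 and CLIC4P2) between them. In GENCODE release 29, TNFSF9 has 1 transcript of 3 exons. The CD70 transcript that GENCODE links to NM_001252 also has 3 exons and ends at position 6585839 of the chromosome. A second CD70 transcript of 4 exons ends further downstream, at position 6583183, and another, also of 4 exons, begins upstream and spans positions 6590103 to 6604103.

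The 250 bases before the RefSeq start of TNFSF9 (GRCh38.p14, chr19:6530776-6531025, plus strand, sequence from RefSeq) are shown as the promoter window of the member that matched the RefSeq promoter table, 1 of 2. Capitals mark matches to a GC box, GGGCGG, and to a TATA box, TATAAA.
TNFSF9 promoter: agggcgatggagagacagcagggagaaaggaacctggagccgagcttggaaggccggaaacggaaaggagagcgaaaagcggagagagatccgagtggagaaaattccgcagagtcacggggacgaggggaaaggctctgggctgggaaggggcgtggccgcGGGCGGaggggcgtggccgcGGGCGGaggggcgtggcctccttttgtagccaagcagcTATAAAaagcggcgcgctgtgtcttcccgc
Both strands were searched. The window held 2 GC boxes, from -88 to -83 and from -68 to -63 counted from the RefSeq start, and 1 TATA box from -30 to -25. The GENCODE transcript of TNFSF9 starts at position 6530999, inside this window, so these positions depend on the start used. Among 35116 promoter windows of the same length, 42.6% held GGGCGG and 10.7% held TATAAA. The simple form of a κB site (GGG, any 5 bases, CC) matched 3 times, each time as GGGCGTGGCC in the repeats around the GC boxes, and 54.4% of windows held such a match. No match was found to the AP-1 site TGANTCA (6.57% of windows), the cAMP response element TGACGTCA (1.65%) or the E box CANNTG (61.8%). A match describes the letters only and does not show a binding site.

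The libraries were shallow, with 213566 to 490235 counts each, and 51.7 to 58.7% of counts came from mitochondrial genes in treated libraries against 48.4 to 49.1% in controls. Genes that are usually abundant in glia were often listed at 0, including 7 of 8 glioblastoma or glia markers, so a listing at 0 is not read here as absence of expression. Nestin (NES), an intermediate filament protein of neural progenitors, was the marker with counts. Of the markers of other cell types, all 4 myeloid markers were at 0, 7 of 8 lymphocyte markers were at 0 and CD3E had 2 counts over all libraries. Of 3 endothelial markers, VWF had 1 count and the others were at 0. Genes with 1 listed transcript, such as TNFSF9, reached a mean of at least 10 counts in 1.86% of cases, against 1.03% of genes with 2 transcripts, such as CD70, and 1.04% of those with 3 or more. Levels below are CPM, the count of a gene divided by the library's sum over genes with a mean of at least 10 counts, on a common scale. TMM scaling corrects that sum for a changed composition of the RNA. CPM on library totals were divided by all counts of the library, without TMM scaling.

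TNFSF9 was low in the controls and higher in every treated library. The controls held 27, 50 and 48 TNFSF9 counts, or 93.6, 181 and 156 CPM, with a mean of 143 ± 44.9 (SD, n = 3). The EA libraries held 142 counts (327 CPM) with EA30 and 279 counts (944 CPM) with EA45. The lowest treated value, 78 counts (231 CPM), was found with TMZ600, so the treated and control ranges did not overlap. The combinations gave 235 counts (1144 CPM) with EA35TMZ320, 180 counts (557 CPM) with EA20TMZ380 and 152 counts (491 CPM) with EA20TMZ580. EA35TMZ320 was thus the highest library for TNFSF9 after scaling, although its total count was the lowest of all. Over all genes with a mean of at least 10 counts, 8.05% lay above every control in all 6 treated libraries, and 10.7% lay below every control in all 6.

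CD70 differed from TNFSF9 with EA30. The controls held 468, 418 and 448 CD70 counts, or 1623, 1509 and 1459 CPM, with a mean of 1530 ± 83.8 (SD, n = 3). EA30 gave 487 counts (1123 CPM), below each control after scaling, and EA45 gave 1107 counts (3747 CPM), above each of them. After TMM scaling, the 5 treated libraries other than EA30 all lay above the controls. Over all genes tested, 8.05% lay above every control in all 6 treated libraries, and the share for 5 was not counted. EA35TMZ320 gave the highest raw count, 1175, and the highest level, 5722 CPM. EA20TMZ380, EA20TMZ580 and TMZ600 gave 635, 809 and 785 counts, or 1966, 2612 and 2320 CPM. In bulk RNA, a change in the number of cells that carry a transcript and a change in the amount per cell cannot be told apart.

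**Figure D1:**
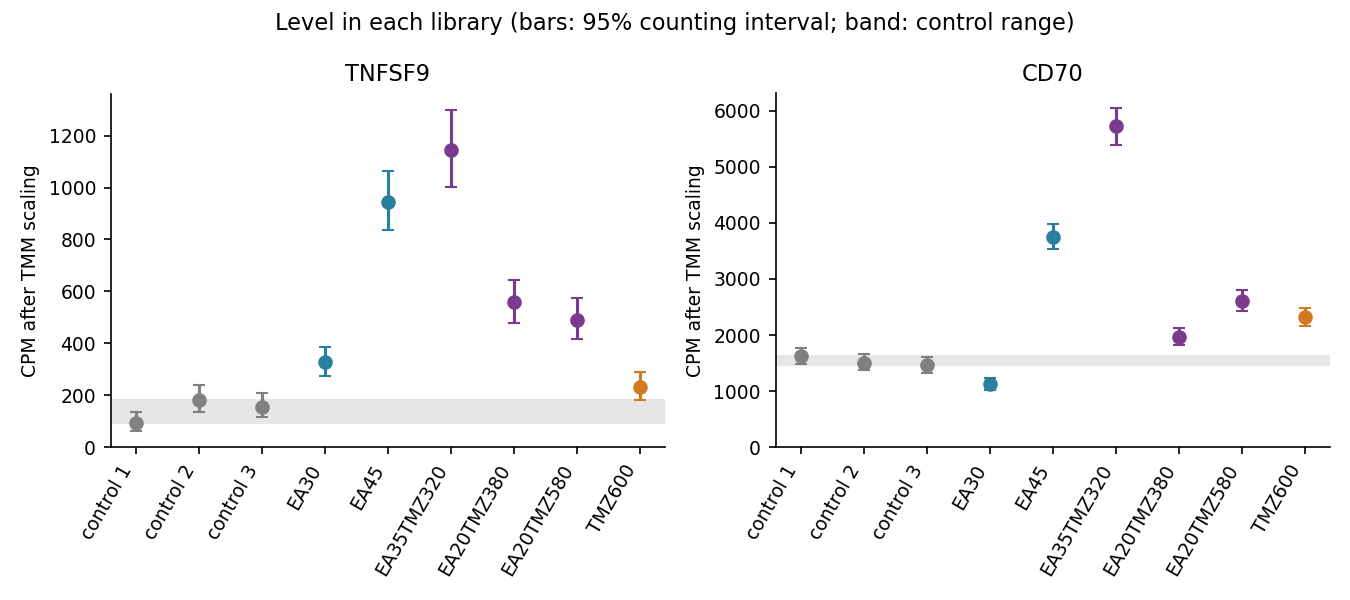
Level of TNFSF9 (left) and CD70 (right) in each of the 9 libraries, in CPM after TMM scaling on linear axes from 0, with 95% exact Poisson intervals of the count as bars and the range of the 3 controls as a grey band. All 6 treated libraries lie above the band for TNFSF9, and 5 lie above it for CD70, with EA30 below at 1123 CPM.

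The counting intervals show how far the depth separates these values. On library totals, TNFSF9 had 256 CPM with TMZ600 (95% exact Poisson interval 203 to 320) and 192 CPM in the highest control (143 to 254), so these intervals overlapped. The EA30 value of TNFSF9, 290 CPM (244 to 341), overlapped that control's interval slightly, and the other 4 treated libraries did not. For CD70 on library totals, EA20TMZ380 gave 1729 CPM (1597 to 1869), inside the control range of 1571 to 1739 CPM. The position of CD70 above the controls with EA20TMZ380 therefore depended on the scaling. Without molecular identifiers, reads are not independent molecules, and all such intervals cover counting error only.

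Relative to the controls, TNFSF9 was at least 2-fold higher in 5 of 6 treatments, and CD70 in 2 of 6. The count for TNFSF9 was 4 of 6 with library totals and without control 1, where EA30 gave log2 values of 0.91 and 0.95. With EA35TMZ320 the fold was 7.96 for TNFSF9 (log2 2.99 ± 0.24, SE) and 3.74 for CD70 (1.90 ± 0.16). With EA45 it was 6.57 for TNFSF9 (2.72 ± 0.24) and 2.45 for CD70 (1.29 ± 0.16). These were the treatments in which both ligands were at least 2-fold higher, and there 15.9% (EA35TMZ320) and 12.8% (EA45) of all genes tested were also at least 2-fold higher. With EA20TMZ380 TNFSF9 was 3.88-fold higher (1.96 ± 0.25) and CD70 1.28-fold higher (0.36 ± 0.16), where 7.22% of genes were at least 2-fold higher. With EA20TMZ580 the folds were 3.42 (1.77 ± 0.25) and 1.71 (0.77 ± 0.16), with 8.21% of genes at least 2-fold higher. The fold of TNFSF9 was thus larger than that of CD70 in each of the 3 combinations.

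For TNFSF9, the smallest folds were those of EA30 and TMZ600. With EA30 TNFSF9 was 2.28-fold higher (log2 1.19 ± 0.26, SE) and CD70 was 1.36-fold lower (-0.45 ± 0.16), and 6.08% of genes were at least 2-fold higher. With TMZ600 TNFSF9 was 1.61-fold higher (0.68 ± 0.28) and CD70 1.52-fold higher (0.60 ± 0.16), and 3.94% of genes were at least 2-fold higher. TMZ600 was the treatment in which the ligands had similar folds. The median log2 fold change of all genes tested ran from -0.13 to 0.01 over the 6 treatments. As each treatment had 1 library, these standard errors take their spread from the 3 controls, pooled by edgeR in part over all genes tested. They assume that a treated library would vary as the controls do. Leaving out the mitochondrial genes, whose share of counts was higher in treated libraries, gave log2 fold changes of TNFSF9 between 0.70 (TMZ600) and 3.00 (EA35TMZ320). With library totals in place of TMM, the value of CD70 was 0.067 with EA20TMZ380 and -0.73 with EA30.

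**Figure D2:**
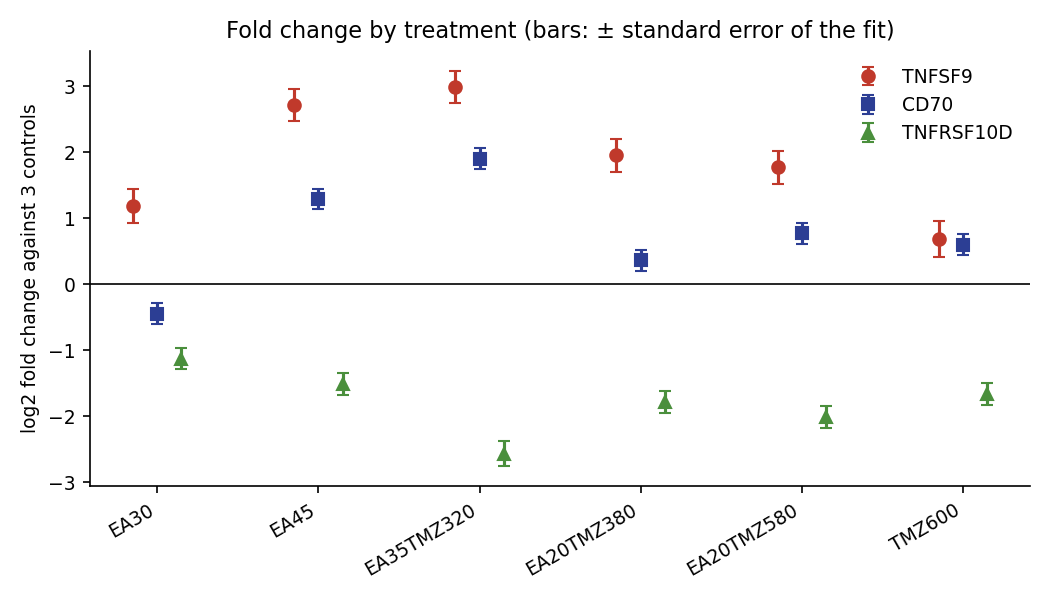
Log2 fold change against the 3 controls for TNFSF9 (red circles), CD70 (blue squares) and TNFRSF10D (green triangles) in each of 6 treatments, with bars of ± 1 standard error of the fit. TNFSF9 lies above 0 throughout, CD70 lies below 0 with EA30 (-0.45) and above it elsewhere, and TNFRSF10D lies below 0 throughout.

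In order of level, TNFSF9 ran from the controls through TMZ600, EA30, EA20TMZ580, EA20TMZ380 and EA45 to EA35TMZ320. The steps from EA20TMZ580 to EA20TMZ380 (0.18 log2) and from EA45 to EA35TMZ320 (0.28 log2) were smaller than the SD of the controls on the log2 scale (0.47). No step between neighbours exceeded the whole control range of 0.90. CD70 ran from EA30 through the controls, EA20TMZ380, TMZ600, EA20TMZ580 and EA45 to EA35TMZ320. Its controls agreed more closely (log2 SD 0.078, range 0.15), and each of its steps, from 0.17 to 0.61, exceeded that range. Both orders ended with EA45 and EA35TMZ320, the treatments with the most EA.

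At matched doses of one agent, the comparison of EA45 with EA30 gave a 2.88-fold higher level of TNFSF9 (log2 1.53 ± 0.28, SE) and a 3.34-fold higher level of CD70 (1.74 ± 0.19). Raising TMZ from 380 to 580 µM beside 20 µM EA gave -0.18 ± 0.28 for TNFSF9 and 0.41 ± 0.19 for CD70, a 1.33-fold higher level. The step in EA thus went with larger differences in both ligands than the step in TMZ. These are comparisons of single libraries.

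Over all 9 libraries, a model with a term for each agent gave TNFSF9 a log2 slope of 0.63 ± 0.08 (SE) per 10 µM EA and 0.15 ± 0.05 per 100 µM TMZ. The slopes of CD70 were 0.28 ± 0.09 per 10 µM EA and 0.11 ± 0.06 per 100 µM TMZ. Without EA35TMZ320 the EA slope of CD70 was 0.20, and without EA30 its TMZ slope was 0.069. A term for the product of the doses was 0.040 ± 0.037 for TNFSF9 and 0.032 ± 0.042 for CD70, each about the size of its standard error or smaller, and with it the TMZ slope was 0.10 for TNFSF9 and 0.074 for CD70. Apart from that model, a plane on both doses was fitted to the log2 CPM of each ligand by ordinary least squares. CD70 lay far from this plane with EA30, which was 1.03 log2 units lower than the plane, and with EA35TMZ320, which was 0.82 higher. The same libraries gave the largest distances among treated libraries for TNFSF9, 0.55 lower and 0.44 higher. A straight dose relation thus described TNFSF9 more closely than CD70.

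**Figure D3:**
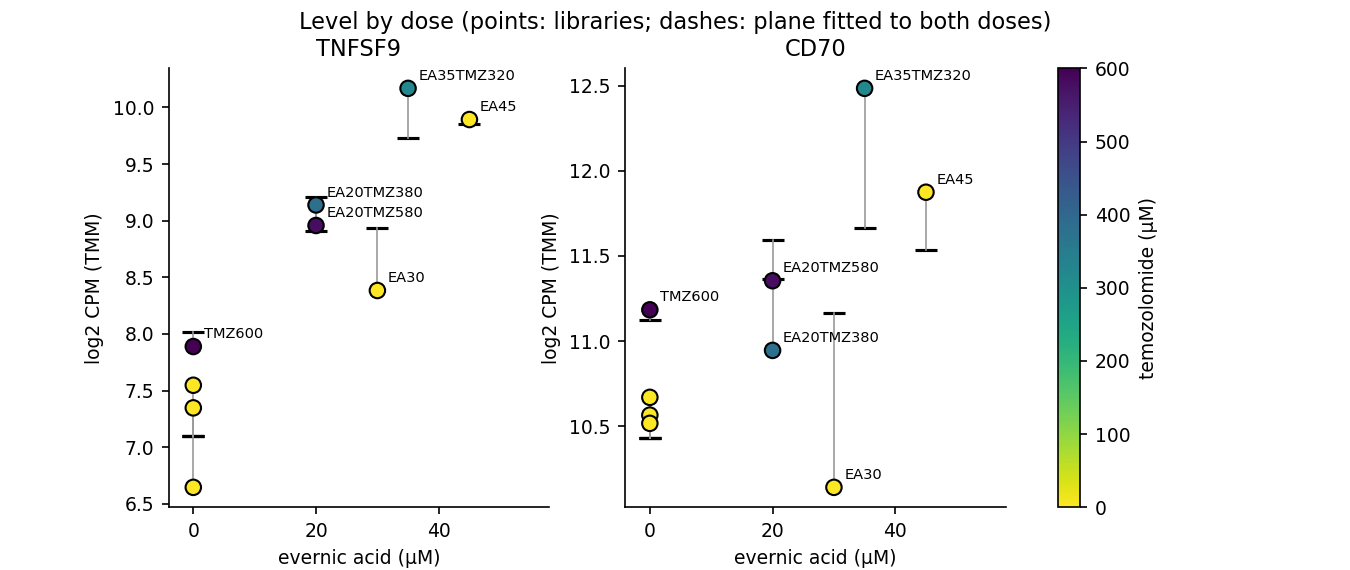
Log2 CPM after TMM scaling of TNFSF9 (left) and CD70 (right) against the EA dose in µM, coloured by the TMZ dose in µM. Points are the 9 libraries, dashes are the plane fitted to both doses and grey lines join them. The longest distance for CD70 is that of EA30, 1.03 below the plane.

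The number of CD70 counts per TNFSF9 count was 17.3, 8.36 and 9.33 in the controls. It was 3.43 with EA30, 3.97 with EA45, 5.00 with EA35TMZ320, 3.53 with EA20TMZ380 and 5.32 with EA20TMZ580, all below the controls. TMZ600 gave 10.1, between control 1 (17.3, on 27 TNFSF9 counts) and the other controls, and above both of these if control 1 is left out. This ratio needs no scaling between libraries, because both counts come from the same library. In all 5 libraries with EA the ratio was therefore lower than in each control, also without control 1. Over the 9 libraries the log2 levels of the ligands had a Pearson r of 0.77 and a Spearman rho of 0.72, with shared controls and depth differences among the points. Without EA35TMZ320 and control 1, the libraries farthest from the median of TNFSF9, r was 0.70. Without EA35TMZ320 and EA45, those farthest from the median of CD70, r was 0.38.

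The CD70 counts came from 2 listed transcripts. NM_001252.5 held 415, 397 and 420 counts in the controls and between 455 (EA30) and 1150 (EA35TMZ320) in treated libraries. NM_001330332.2 held 53, 21 and 28 counts in the controls and 16 to 55 in treated libraries. The differences between treatments in CD70 counts were thus carried by the counts listed for NM_001252.5. The handling of reads shared by the 2 transcripts is not given in the sources used here. These counts and shares therefore do not measure the use of each transcript. The share of CD70 counts on NM_001330332.2 was 11.3% (95% Wilson interval 8.76 to 14.5), 5.02% (3.31 to 7.56) and 6.25% (4.36 to 8.88) in the controls. It was lowest with EA35TMZ320, at 2.13% (1.45 to 3.12), and with EA20TMZ380, at 2.52% (1.56 to 4.05), both below each control. The other 4 treated libraries lay between 4.43% and 7.01%, near or within the control range. The means were 7.53% ± 3.34 (SD, n = 3) in the controls and 4.62% ± 2.02 (SD, n = 6) over the treated libraries, a difference smaller than the SD of the controls. No GENCODE transcript was linked to NM_001330332, so its 3′ end is not placed here.

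**Figure D4:**
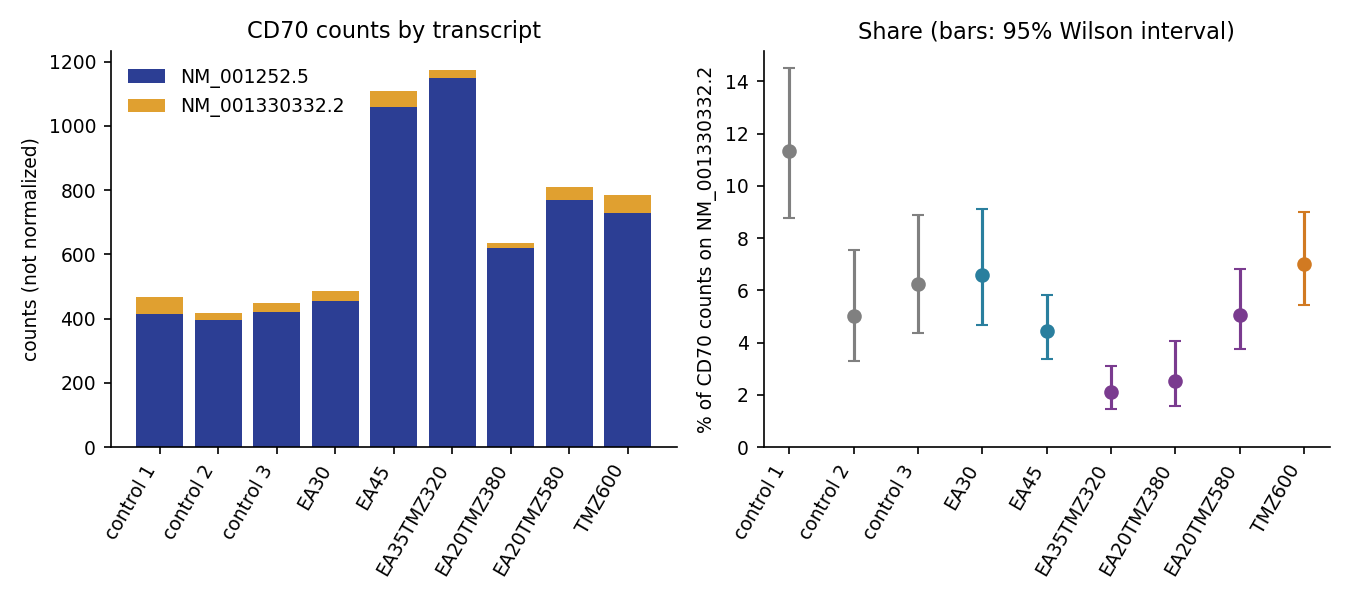
CD70 counts by transcript in each library, not normalized and stacked from 0 (left), and the percentage of CD70 counts on NM_001330332.2 with 95% Wilson intervals (right). NM_001252.5 holds most counts in every library, and the share of the other transcript is lowest with EA35TMZ320 at 2.13%.

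The other genes of the pathway were taken from lists of TNF ligands, TNF receptors and receptor adaptors. Of 68 such genes besides the members, 51 were at 0 in every library, 14 had too few counts to test and 3 were tested, with edgeR's quasi-likelihood test and adjustment over all 609 genes. Of the 18 ligands, 14 were at 0, and besides the members TNFSF4 (OX40 ligand) had 5 counts and TNFSF15 had 4 over all libraries. TNFSF9 and CD70 were thus the ligands with enough counts in this table to compare. Their own receptors were barely detected or not detected. TNFRSF9 had 2 counts, both with EA45, and CD27 had 0 counts in each library, which allows up to 6.12 to 14.0 CPM on library totals (3 counts). Of the 29 receptors 19 were at 0, and TNFRSF10D and TNFRSF13C were tested.

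TNFRSF10D, a decoy receptor that binds the ligand TRAIL without passing on a full death signal, fell over the 6 treatments. It held 1174, 1127 and 1194 counts in the controls, or 4009 ± 104 CPM (SD, n = 3). Treated libraries held 795 counts with EA30, 416 with EA45, 139 with EA35TMZ320, 376 with EA20TMZ380, 309 with EA20TMZ580 and 429 with TMZ600. These correspond to 677 to 1833 CPM, with all 6 treated libraries below every control. The fall was 3.27-fold over the 6 treatments taken as 1 group (log2 -1.71 ± 0.25, adjusted p = 0.0017, edgeR), a comparison in which 6.4% of genes passed the test. Its slope was -0.37 ± 0.05 per 10 µM EA (adjusted p = 0.00015) and -0.26 ± 0.03 per 100 µM TMZ (adjusted p = 0.00039), both by edgeR's dose model. In that model 27.3% of genes passed for EA and 3.61% for TMZ. EA35TMZ320 was the lowest library for TNFRSF10D and the highest for both ligands. The handling of reads shared with the related TRAIL receptor genes is not given in the sources used here, and their part in the value was not tested.

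Of the genes called for EA, 86 were higher and 80 lower with dose, and with library totals in place of TMM 40 were higher and 119 lower. For the 6 treatments as 1 group, 17 were higher and 22 lower, against 13 and 40 with library totals, which moved the median log2 change of all genes from 0.030 to -0.15. For TMZ, 8 were higher and 14 lower. The fall of TNFRSF10D passed the test under each alternative run, including library totals and each left-out library.

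TNFRSF13C, the BAFF receptor, held 3 to 24 counts in the controls and 6 to 27 in treated libraries. Its log2 change over the 6 treatments was 0.14 ± 0.53 (edgeR adjusted p = 0.890). RIPK1, a kinase that acts below TNF receptors, held 32, 79 and 155 counts in the controls and 52 to 202 in treated libraries. Its change was 0.18 ± 0.46 (edgeR adjusted p = 0.840), and 5 of 6 treated libraries lay within its control range. Neither gene passed the test for a dose term. The sign of both changes turned with library totals. TNFRSF10A, a death receptor for TRAIL, gave 41 counts over all libraries, from 5 to 9 per control and from 0 to 9 per treated library, too few to test.

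Of 28 NF-κB subunits and targets, 23 were at 0 and NFKBIB, an inhibitor of NF-κB, was tested. It held 15 to 22 counts in the controls and 7 to 50 in treated libraries, and its change was 0.085 ± 0.45 (edgeR adjusted p = 0.918). None of the 20 AP-1 and stress response genes and none of the 20 p53 targets had enough counts to test. ATF3, a stress-induced transcription factor, had 6 counts with EA20TMZ380, 1 with EA20TMZ580 and 0 elsewhere. Of 24 co-stimulatory, checkpoint and antigen presentation genes 21 were at 0. CD274 (PD-L1), an inhibitory ligand for T cells, had 6, 12 and 8 counts in the controls, 15 with EA20TMZ580, 23 with TMZ600 and 4 to 8 in the other 4 treatments, and its mean was below the minimum for the test. These pathway lists therefore gave counts for too few genes to describe NF-κB, AP-1 or p53 activity beside the ligands.

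NES, the one glia marker with counts, fell over the 6 treatments. It held 152, 169 and 174 counts in the controls, or 568 ± 41.6 CPM (SD, n = 3), and 15 to 56 counts, or 50.8 to 160 CPM, in treated libraries. The log2 change over the 6 treatments was -2.38 ± 0.32 (edgeR adjusted p = 0.0010), with all treated libraries below every control. Its slopes were -0.64 ± 0.08 per 10 µM EA (edgeR adjusted p = 0.00011) and -0.26 ± 0.05 per 100 µM TMZ (edgeR adjusted p = 0.017). Without TMZ600 the TMZ slope gave an adjusted p of 0.18, and without control 2, control 3 or EA20TMZ580 it gave 0.064 to 0.091. Over all genes tested, 6.4% passed for the 6 treatments, 27.3% for EA and 3.61% for TMZ. Below every control in all 6 treated libraries lay 10.7% of genes. Whether the fall of NES had a part in the values of the ligands was not tested.

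Few neighbours of TNFSF9 and CD70 could be measured. Within 500 kb of either gene lie 44 other annotated genes, of which 35 had a row in the table, 6 had at least 1 count and 5 had at least 10 counts in all. TNFSF14 (LIGHT), a further TNF ligand between CD70 and C3, was at 0 in every library. CLPP, a mitochondrial protease subunit at chr19:6361531-6370242, held 352 to 455 counts in the controls and 330 to 672 in treated libraries. Its log2 change over the 6 treatments was 0.012 ± 0.20 (edgeR adjusted p = 0.978), and its dose slopes were 0.065 ± 0.047 for EA and -0.050 ± 0.031 for TMZ, with treated libraries on both sides of the controls. PSPN (persephin), a neurotrophic factor gene at chr19:6375148-6375933, held 14 to 20 counts in the controls and 6 to 34 in treated libraries, with a change of 0.23 ± 0.52 (edgeR adjusted p = 0.813). PSPN overlaps ALKBH7, which had 54 counts in all, so reads may belong to either gene. KHSRP, an RNA-binding protein gene, had 41 counts.

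C3, the central complement protein, is the tested gene nearest to CD70 on its far side, at chr19:6677704-6720650, 86553 bases beyond it. Its controls held 511, 609 and 493 counts, or 1859 ± 306 CPM (SD, n = 3). It held 1060 counts (2444 CPM) with EA30 and 879 counts (2975 CPM) with EA45, above every control after TMM scaling, although on library totals EA30 lay below control 2. It lay below every control in the 4 libraries with TMZ, with 424 counts for TMZ600 and 341, 342 and 208 counts for the combinations EA20TMZ380, EA20TMZ580 and EA35TMZ320. The lowest of these was 1013 CPM, against 1606 CPM in the lowest control. After TMM scaling, C3 and CD70 thus lay on opposite sides of the controls in EA30 and in the 4 TMZ libraries, and on the same side in EA45. On library totals neither EA30 for C3 nor EA20TMZ380 for CD70 lay outside the controls. The TMZ slope was -0.17 ± 0.04 per 100 µM (edgeR adjusted p = 0.042), and the EA slope was 0.058 ± 0.064 (edgeR adjusted p = 0.537). With single agents only, the EA slope was 0.15 ± 0.040 and passed the test (edgeR adjusted p = 0.0053), and with a product term it was 0.13 ± 0.060 (edgeR adjusted p = 0.124). The TMZ call was lost in 9 of 20 alternatives, with edgeR adjusted p up to 0.84 with a product term, and the EA slope turned its sign with library totals and without EA45.

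**Figure D5:**
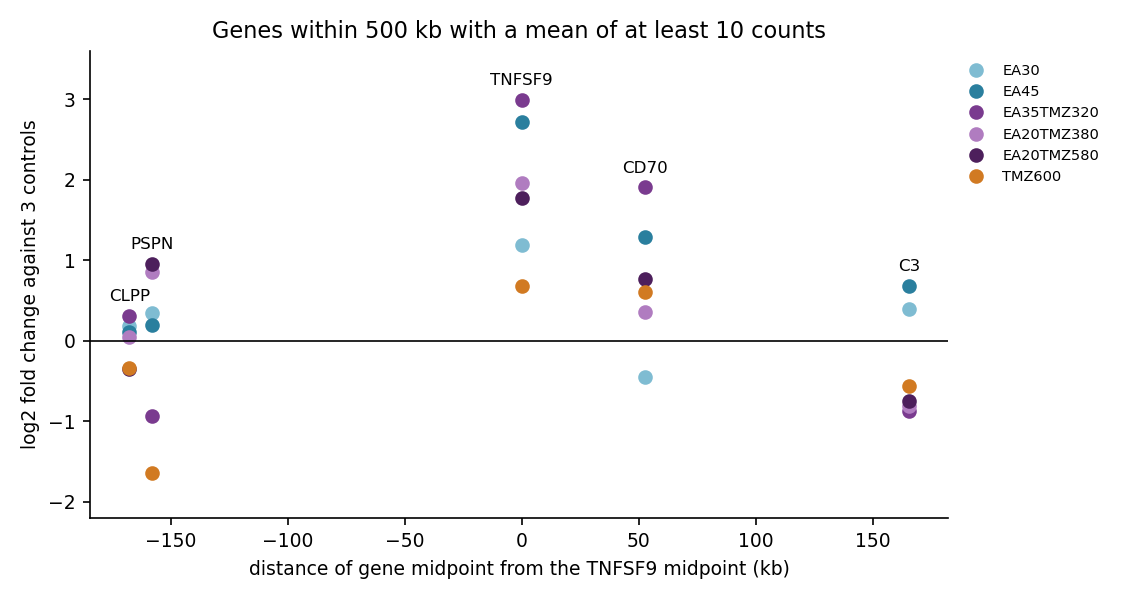
Log2 fold change against the 3 controls in each of 6 treatments for the genes within 500 kb that had a mean of at least 10 counts, placed by the distance in kb of the gene's midpoint from that of TNFSF9. All treatments lie above 0 for TNFSF9, while CLPP, PSPN and C3 lie on both sides of 0.

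Among the other 608 genes with a mean of at least 10 counts, those whose log2 CPM over the 9 libraries had the highest Pearson r with TNFSF9 were LOC105375892 (0.98), CREB3 (0.97), LURAP1L (0.95), MYDGF (0.95) and the unnamed transcript XM_005273466.4 (0.95). CREB3, a transcription factor anchored in the endoplasmic reticulum membrane, held 257, 263 and 291 counts in the controls and 387 to 631 in treated libraries. Its log2 CPM after TMM scaling, though not its raw counts, had the same rank order as that of TNFSF9 over the 9 libraries (rho 1.00). LURAP1L held 58 to 73 counts in the controls and 209 (TMZ600) to 660 (EA45) in treated libraries. MYDGF, a growth factor of the secretory pathway, held 1107 to 1174 counts in the controls and 1255 to 2684 in treated libraries. CD70 ranked 65 in this order.

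The genes most like CD70 were other ones, C9orf72 (r = 0.95), KLK9 (0.93), PAX6 (0.90), MEIKIN (0.89) and POLQ (0.89), and TNFSF9 ranked 33. C9orf72, a gene of vesicle traffic and autophagy, held 2 to 5 counts in the controls, 3 with EA30, 31 with EA45 and 53 with EA35TMZ320. POLQ, a DNA polymerase of end joining, held 29 to 43 counts in the controls and 42 to 92 in treated libraries. MEIKIN, a gene of the meiotic kinetochore, held 142 to 178 counts in the controls and 224 to 656 in treated libraries. By Spearman's rho KLK9 and MEIKIN ranked 22 for CD70 and MYDGF ranked 25 for TNFSF9 (rho 0.88), so their places depended on the measure. These correlations over 9 libraries with shared controls are descriptions and carry no p.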

How the data were processed

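RNA of U-87 cells (9 libraries) was prepared by the authors with a 3′ mRNA library kit. They deposited 1 table of counts per RefSeq transcript, not normalized. The submitters' processing notes name HISAT2, HTSeq and hg38. Versions, strand setting and the handling of shared reads are not given in the sources used here. Groups came from the treatment labels, and no value column was left unused (0). Transcripts were named from RefSeq GRCh38.p14, 57755 by accession and version and 56301 by accession. The 45011 others held 4.63% of counts. Counts were summed per gene.

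Genes with a mean of at least 10 counts were fitted with edgeR 4.0.16 in R 4.3.3 (quasi-likelihood, TMM, Benjamini-Hochberg adjustment over all genes, threshold 0.05). The fits had 1 coefficient per condition, the 6 treated libraries as 1 group, or terms per 10 µM EA and per 100 µM TMZ. Treated libraries differ in dose and agent and are not replicates. The scripts were tested on simulated data. Log2 CPM used a prior count of 2. DESeq2 1.42.0 and limma 3.58.1 served as alternatives.

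The named genes are both members, list genes with a mean of at least 10 counts (others by count), genes within 500 kb with at least 10 counts in all, and the 5 genes with the highest r to each member. ATF3, TNFRSF10A, CD274 and other genes under the minimum were named after their values were seen. The members and lists were chosen with earlier results of these data known.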

Additional observations from a re-analysis of the deposited data

How the results depend on the processing

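No paired analysis was possible because the controls' numbers have no counterpart in the treated libraries. The log2 fold changes of TNFSF9 in all 6 treatments kept their sign and moved by less than the control SD in every alternative. Its EA slope ran from 0.56 to 0.67, a shift smaller than its standard error, and kept its sign with the square root of dose, which is on another scale. The depth, 213566 to 490235 counts, limits values of genes under about 10 counts, and each treatment rests on 1 library. The cause of the shifts below was not tested. With library totals in place of TMM, CD70 gave -0.73 (EA30), 1.04 (EA45), 1.74 (EA35TMZ320), 0.067 (EA20TMZ380) and 0.57 (EA20TMZ580). CD70 in EA35TMZ320 was 2.04 with the geometric mean of abundant genes, 2.00 with transcripts not summed and 1.80 without a filter. CD70 in EA20TMZ380 was 0.44 without mitochondrial genes and 0.28 where genes needed a mean of 50 counts. The EA slope of CD70 ran from 0.20 (without EA35TMZ320) to 0.33 when each library was left out, and its TMZ slope from 0.069 (without EA30) to 0.15. With the product of doses the TMZ slope was 0.10 for TNFSF9 and 0.074 for CD70. With the DESeq2 Wald test, 89 genes were called for the 6 treatments and 42 for TMZ. For TMZ, 5 were called with the product of doses and 10 with the square root of dose. Leaving out each library gave 11 to 64 calls for the 6 treatments (11, 12 and 14 without control 1, 2 and 3, and 64 without TMZ600). It gave 60 (without EA45) to 194 calls for EA, with 109 without control 2. It gave 7 (without control 2) to 36 (without EA35TMZ320) for TMZ, with 10, 11, 12 and 13 without control 3, EA30, EA20TMZ580 and EA45.

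Genes whose changes lay near 0 turned their sign. With library totals the change over the 6 treatments was -0.057 for TNFRSF13C, -0.021 for RIPK1, -0.14 for NFKBIB and -0.18 for CLPP, and the EA slope was -0.068 for TNFRSF13C, -0.0013 for CLPP and -0.0095 for C3. With limma-voom the change was -0.0092 for NFKBIB and -0.0078 for CLPP, and under the stricter minimum of 50 counts that of CLPP was -0.024. The TMZ slope of TNFRSF13C was 0.0078 with limma-voom, 0.038 with the product of doses and 0.022 with single agents only, and that of PSPN was -0.041, -0.17 and -0.28. When each library was left out, the change over the 6 treatments ran from -0.33 to 0.70 for TNFRSF13C, -0.22 to 0.78 for RIPK1, -0.14 to 0.23 for NFKBIB and -0.065 to 0.12 for CLPP. The EA slope ran from -0.11 to 0.098 for TNFRSF13C, -0.014 to 0.19 for PSPN and -0.031 to 0.11 for C3, and the TMZ slope from -0.078 to 0.039 for TNFRSF13C and -0.10 to 0.12 for PSPN.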
